A study of Homo sapiens with 24 samples.

Results

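The 43 genes described here encode the lysosome's enzymes, its membrane proteins, the proton pump that acidifies it and the transcription factors TFEB and TFE3. They were taken by name from a list, not by a cut on their values. The list was chosen with earlier results of these data known. All 43 were present among the 21831 genes of each deposited table. The list holds 2 transcription factors, 8 membrane proteins, 21 hydrolases and other lumen proteins, and 12 subunits of the vacuolar proton pump (V-ATPase), of which 6 belong to its membrane sector V0 and 6 to its cytosolic sector V1. RNA-seq measured their messenger RNA in HBL-1, a long-established lymphoma line grown from human B cells (diffuse large B-cell lymphoma of the activated subtype). Cells received 20 µM dimethyl fumarate (DMF), a cysteine-reactive ester of fumaric acid, dissolved in DMSO, or DMSO alone (control). They were taken after 6, 12, 24 or 48 h. Each of the 8 groups holds 3 libraries, so there are 24. All groups share the same cell line, medium and DMSO, so every value comes from 1 line and 1 dose. Nothing in the labels says whether replicates came from separate cultures, so p-values measure the spread between these libraries, which may be technical.

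The lysosome is the acidic organelle in which proteins, lipids, glycans and nucleic acids delivered by endocytosis and autophagy are broken down. The V-ATPase uses ATP, hydrolysed by V1 on the cytosolic face, to drive protons through the V0 ring into the lumen, and most lysosomal hydrolases work only at the resulting low pH. TFEB and TFE3, helix-loop-helix factors of the MiT/TFE family, are held in the cytosol by phosphorylation through mTORC1 on the lysosome surface. After dephosphorylation they enter the nucleus and bind the CLEAR element, a palindrome around CACGTG found in promoters of many lysosomal genes. Messenger RNA levels do not show where these factors are in the cell, nor enzyme activity or pH.

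The promoter stretches below are shown because they carry the core of the CLEAR element, TCACGTGA, in members from 3 of the classes whose levels are given afterwards. They come from RefSeq promoters of GRCh38.p14 that run from 250 bases before to 50 after a gene's start. Each is 30 bases long, 5′ to 3′ on the gene's strand, with the core in capitals. They lie at chr13:113297199-113297228 (plus strand), chr16:67481199-67481228 (minus strand), chr17:80101493-80101522 and chr17:80101538-80101567 (plus), chr19:7522571-7522600 (plus) and chr20:45891298-45891327 (plus). The core begins 29, 60, 77, 32, 42 and 26 bases before the annotated start, in that order.
LAMP1: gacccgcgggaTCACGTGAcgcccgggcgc
ATP6V0D1: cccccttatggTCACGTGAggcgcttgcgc
GAA: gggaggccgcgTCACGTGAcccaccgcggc
GAA: gctcccgccggTCACGTGAcccgcctctgc
MCOLN1: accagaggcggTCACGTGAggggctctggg
CTSA: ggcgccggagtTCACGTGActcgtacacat

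Of the 43 members, 30 had a promoter in that table, and both strands were searched. The core TCACGTGA was present in 5 of 30 (16.7%), namely those printed, against 1.04% of all 27305 promoters. The shorter CACGTG, which the core contains, was present in 9 of 30 (30.0%) against 7.43%, and ATP6V0B, NEU1, CTSD and CD63 are the members that held it without the core. The full CLEAR palindrome, which extends the core by a G before and a C after it, was present in GAA and MCOLN1, 2 of 30 (6.67%) against 0.381%. In MCOLN1 it lies at -16 from the start, around another core at -15 that is not printed, and the printed MCOLN1 core is not part of it. LAMP1 also has an unprinted core, at -2. Both were left out because a stretch of that length around them would run past the start. The core of the antioxidant response element, bound by NRF2, was present in 6 of 30 (20.0%) against 4.82%. Those 6 were ATP6V0B, ATP6V0A1, CTSC, GLA, LAMP1 and GAA, and in LAMP1 and GAA it overlapped a CACGTG. A match describes letters in a window of fixed length and is not evidence of binding.

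The shallowest library, DMF replicate 1 of 48 h, held 2870751 expected counts, the next 23097873 and the deepest 40906596. At 12 h, replicate 3 of each treatment differed from all other libraries: weighted by counts, effective transcript length averaged 1902 and 2121 bases there and 2850 to 3157 elsewhere. Each comparison was therefore fitted on its own libraries, and the 12 h results are given with and without replicate 3. The 7 B-cell markers checked summed to 4324 to 11350 CPM (counts scaled to 1000000 per library) in control and 3970 to 8267 in DMF. All 5 T-cell markers and all 6 monocyte and macrophage markers stayed at or under 1 CPM in every library, and CD3G, CD2 and CD163 were at 0 in all 24. Of 3 fibroblast markers PDGFRB reached 4.80 CPM, and of 4 epithelial markers EPCAM reached 4.02, and the epithelial sum was 4.11 to 7.51 CPM in control and 2.58 to 5.22 in DMF. Their part in the results was not tested. Here CPM are scaled by edgeR's TMM over all libraries, and a gene is called when its adjusted p from edgeR's quasi-likelihood test (Benjamini-Hochberg over all genes tested) is under 0.05. All 43 members passed the low-count filter in each comparison, which a gene can do through 1 group alone. LAMP3 passed through the DMF libraries alone at 24 and 48 h, and through those of 6 h alone in control over time. Its p-values in those comparisons are therefore not an independent test.

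Lysosome and V-ATPase genes were higher with DMF at 6, 24 and 48 h, and the 12 pump subunits were called higher at each of these times. At 6 h, 33 of 43 members rose and 4 fell, where 28.8% and 29.0% of all genes tested were called higher and lower. Their median log2 fold change was 0.35, beside -0.01 over all genes. At 24 h, 40 rose and 0 fell, against 31.2% and 30.2% of all genes, with a median of 0.53 beside 0.00. An unadjusted p under 0.05 also gave 40 and 0 members, beside 4174 and 4065 of all 12719 genes. DESeq2 gave 38 and 0 members. At 48 h, 35 rose and 2 fell, against 29.9% and 29.7%, with a median of 0.70 beside 0.01. With so many genes called in each direction, the size of a change says more here than a single call. At 6 h, 10 members were called and at least 1.5-fold higher, 2 of them at least 2-fold. At 24 h 21 members passed the lower and 9 the higher of these folds, and at 48 h 25 passed the lower and 12 the higher. Over all genes tested, 598 of 12597 passed the lower and 229 the higher fold at 6 h. These numbers were 1145 and 411 of 12719 at 24 h, and 1566 and 657 of 12970 at 48 h.

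**Figure D1:**
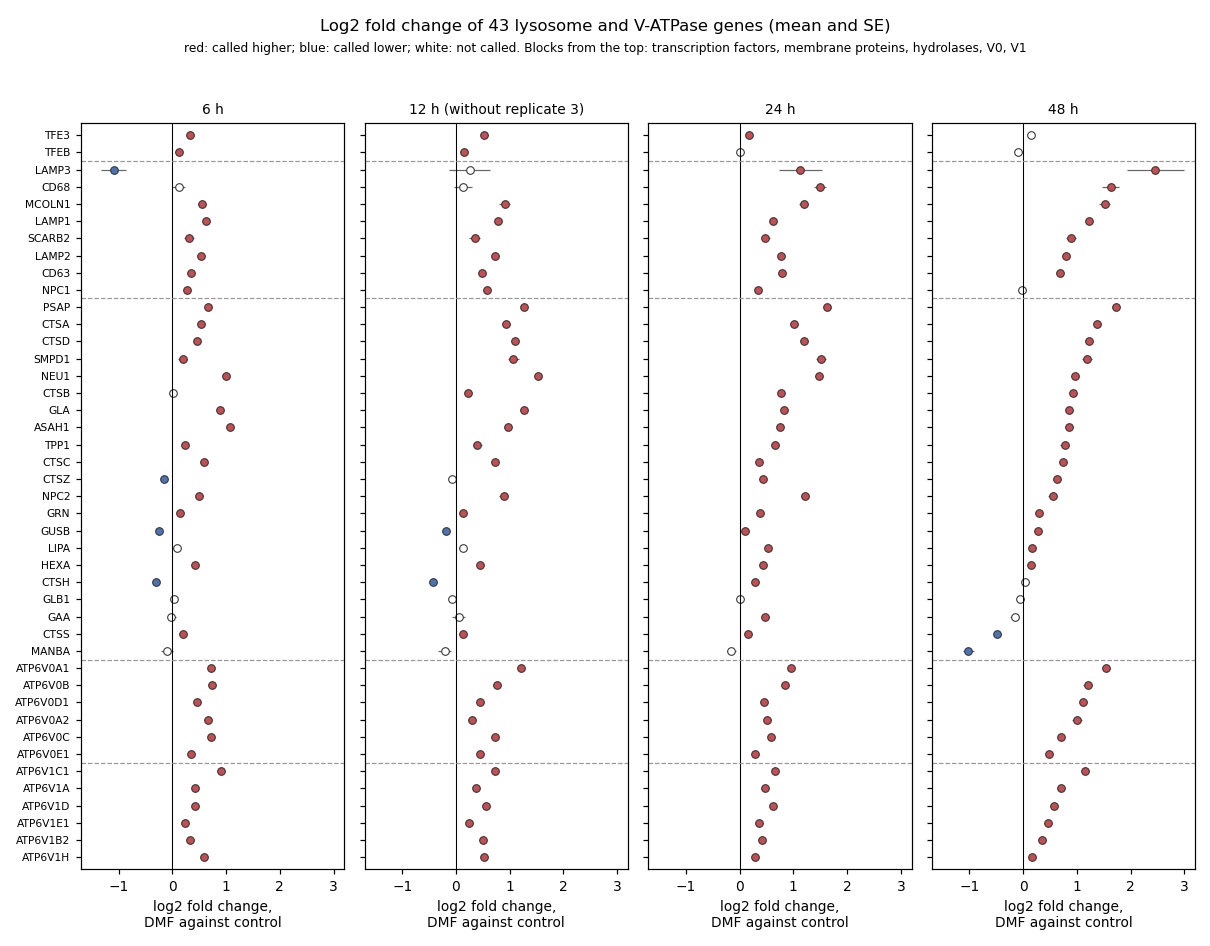
Each point is the log2 fold change of a member, DMF against control (x axis, log2 scale, bars are SE), at 6, 12, 24 and 48 h, with the 12 h panel from the fit of 22 libraries. Red points were called higher, blue lower and white neither; all V-ATPase points are red, and the points left of 0 include LAMP3, CTSH, CTSZ and GUSB at 6 h and CTSS and MANBA at 48 h.

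Of 21 hydrolases and lumen proteins, 13 rose and 3 fell at 6 h, 19 rose at 24 h, and 16 rose and 2 fell at 48 h. Of 8 membrane proteins, 6 rose and 1 fell at 6 h, all 8 rose at 24 h and 7 rose at 48 h. TFEB and TFE3 were both called higher at 6 h, TFE3 alone at 24 h and neither at 48 h. Called higher at all 3 times were 29 of 43 members (67.4%), against 9.91% of the 12312 genes tested at each time. Those were the 12 V-ATPase subunits, 5 membrane proteins and 12 hydrolases and lumen proteins. GLB1, the lysosomal beta-galactosidase, was the member called at none.

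The unit changes the size of these shifts. With TPM, which divide by transcript length and to a fixed sum per library, limma on log2(TPM + 1) moved the median of all genes to -0.13 at 6 h, -0.05 at 24 h and 0.22 at 48 h, and to 0.35 for the effect at 48 h minus that at 6 h. It called 1630 genes higher and 5268 lower at 6 h, against 3634 and 3649 by counts. At 48 h it called 5333 and 1626, against 3877 and 3856. The members moved with that shift: their median was 0.25 at 6 h and 0.93 at 48 h, and 28 and 38 of the 42 that passed a mean TPM of 1 were called higher. The V-ATPase subunits were called higher in 12 of 12 at 6, 24 and 48 h on this scale too.

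Per length, GRN and CTSZ were the most abundant members in control at 6 h. GRN, the precursor of the granulin peptides, was at 802 ± 4.01 TPM (SD, n = 3) and CTSZ, the carboxypeptidase cathepsin Z, at 661 ± 2.38. The next were the V0 subunits ATP6V0C at 282 ± 6.42 and ATP6V0E1 at 276 ± 4.50, whose means lie less than their spread apart. LAMP3 was the least abundant at 1.39 ± 0.66 TPM. In DMF at 48 h GRN was still highest at 987 ± 40.4, and PSAP stood at 722 ± 4.81 beside CTSZ at 706 ± 28.0, a gap within the spread of CTSZ. PSAP had been sixth in control at 6 h at 205 ± 2.43.

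Summed over a class, TPM show the same groups apart. The 12 V-ATPase subunits summed to 1339, 1309 and 1338 TPM in control at 6 h and to 1754, 1714 and 1745 with DMF. At 48 h they summed to 940, 912 and 918 in control and 1848, 1791 and 1814 with DMF. The groups did not overlap at either time, and the control sums of 48 h lay below those of 6 h. The 21 hydrolases and lumen proteins went from 1975, 1964 and 2034 in control to 3673, 3708 and 3779 with DMF at 48 h, again without overlap. TFEB and TFE3 together stood at 182, 185 and 180 in control and 182, 187 and 180 with DMF at 6 h, where the groups overlapped. In bulk RNA, a change in the number of cells that express a gene and a change per cell cannot be told apart.

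**Figure D2:**
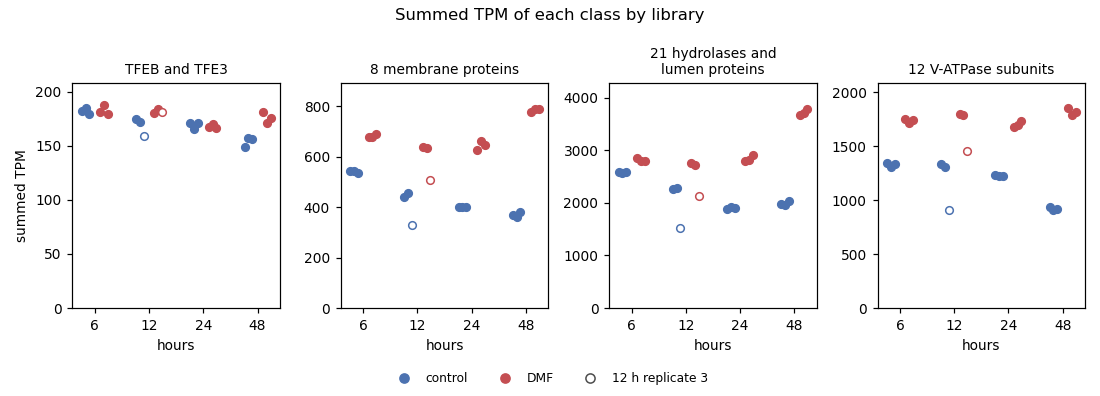
Summed TPM (y axis, linear from 0) of each class in every library by hours of culture (x axis), control in blue and DMF in red, with open circles for replicate 3 of 12 h. The DMF sums of membrane proteins, hydrolases and V-ATPase lie above the controls at 6, 24 and 48 h; the regulators' sums overlap at 6 and 24 h.

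TFEB showed small differences whose direction depended on scaling. Its CPM at 6 h were 208, 214 and 203 in control and 223, 229 and 228 with DMF. All 3 DMF libraries lay above the controls, and the log2 fold change was 0.12 ± 0.03 (SE, adjusted p = 0.001), but on TPM it was -0.02. At 24 h the groups overlapped, at 188, 181 and 186 in control and 193, 183 and 184 with DMF, with a log2 fold change of 0.01 ± 0.04 (adjusted p = 0.75). At 48 h they overlapped again, at 171, 199 and 173 against 179.7, 162 and 171. The value of -0.09 ± 0.07 (adjusted p = 0.22) became 0.16 on TPM (limma, adjusted p = 0.017). Relative to the TPM medians of all genes given earlier, TFEB lay above at 6 h and below at 48 h. Per length, TFEB was the more abundant of the pair, at 166 ± 3.11 TPM in control at 6 h against 16.2 ± 0.42 for TFE3.

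TFE3, the paralog of TFEB with the same target element, was called higher at 6 and 24 h. At 6 h its CPM were 32.7, 31.4 and 32.3 in control and 39.8, 41.9 and 40.2 with DMF, without overlap, and the log2 fold change was 0.33 ± 0.05 (adjusted p = 5e-07). At 24 h they were 34.7, 32.0 and 35.8 against 38.8, 39.9 and 36.5. The 24 h groups stayed apart by a narrow margin, and the call (0.17 ± 0.05, adjusted p = 0.011) was lost without control replicate 2 (adjusted p = 0.089) and on TPM (0.12, adjusted p = 0.11). At 48 h all DMF libraries lay above the controls, at 44.4, 42.2 and 41.7 against 35.3, 39.0 and 40.2, but the difference of 0.14 ± 0.07 did not pass (adjusted p = 0.097). On TPM it did, at 0.38 (limma, adjusted p = 0.0023), though the TPM median of all genes given earlier was itself above 0 at 48 h. The TFE3 value lay above that median. The edgeR fit of 22 libraries also called it, at 0.15 (adjusted p = 0.023).

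Among membrane proteins, LAMP1, a main glycoprotein of the lysosome's limiting membrane, rose at 6 h and again stood higher at 48 h. Its CPM at 6 h were 278, 279 and 280.0 in control and 437, 416 and 439 with DMF, a log2 fold change of 0.62 ± 0.03 (adjusted p = 2.3e-16). At 48 h they were 122, 132 and 121 against 289, 293 and 299, or 1.23 ± 0.06 (adjusted p = 1.4e-12). The groups were far apart at both times, and the 48 h DMF level lay above all 6 h controls while the 48 h controls had fallen well below them. LAMP2, its relative that also serves chaperone-mediated autophagy, rose by 0.54 ± 0.03, 0.77 ± 0.04 and 0.79 ± 0.06 at 6, 24 and 48 h.

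MCOLN1, the calcium channel of the lysosome membrane whose promoter is printed above, rose at each of these times. At 6 h its CPM were 11.5, 11.8 and 12.4 in control and 16.2, 17.1 and 19.1 with DMF (log2 fold change 0.55 ± 0.07, adjusted p = 2.8e-07). At 24 h they were 9.89, 8.02 and 9.69 against 20.7, 20.1 and 22.3 (1.19 ± 0.08, adjusted p = 2.5e-10). By 48 h the values were 6.47, 6.99 and 5.61 against 20.4, 17.5 and 18.2 (1.52 ± 0.10, adjusted p = 3.5e-10). No DMF library overlapped a control, and the DMF values stayed between 16.2 and 22.3 while the control values fell. The gene span of MCOLN1 overlaps that of PNPLA6, and the strand of the libraries is not stated. Neither the neighbour's strand nor the length of the overlap was examined, so how many reads could be shared is not known.

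CD68, a heavily glycosylated endolysosomal protein abundant in macrophages, was not called at 6 h and was higher later. At 6 h its CPM were 3.76, 3.99 and 3.23 in control and 3.91, 3.85 and 4.14 with DMF, and the groups overlapped (0.12 ± 0.12, adjusted p = 0.41). At 24 h they were 2.49, 2.51 and 2.68 against 6.85, 7.11 and 7.59 (1.49 ± 0.11, adjusted p = 9.5e-10). At 48 h they were 1.90, 2.94 and 3.38 against 8.21, 8.43 and 8.90 (1.63 ± 0.16, adjusted p = 6.2e-08). Both later groups were fully apart. The defining macrophage markers CD14, CSF1R, ITGAM, LYZ, CD163 and FCGR1A summed to 0.546 to 1.37 CPM in control and 0.427 to 1.16 with DMF.

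LAMP3, an inducible member of the LAMP family, was called lower at 6 h and higher at 24 and 48 h, and it rests on few reads. At both later times it passed the low-count filter through its DMF libraries alone. At 6 h its CPM were 1.57, 2.08 and 1.63 in control and 0.824, 0.633 and 1.0 with DMF, and it fell by 1.09 ± 0.23 on the log2 scale (adjusted p = 0.00018). At 24 h the DMF libraries lay above the controls, at 0.564, 0.321 and 0.612 against 0.273, 0.251 and 0.149 (1.13 ± 0.40, adjusted p = 0.019), a call lost without control replicate 3 (adjusted p = 0.087), DMF replicate 1 (0.056) or DMF replicate 3 (0.087), and with DESeq2 (0.082). At 48 h the reads numbered 1, 17 and 22 with DMF and 5, 2 and 2 in control, and the fitted difference was 2.46 ± 0.53 (adjusted p = 0.00057). As a ratio of summed reads per effective depth that is 5.74, with an exact 95% interval of 2.74 to 13.5 that covers counting error only. Control itself had fallen from 1.57 to 2.08 CPM at 6 h to 0.0525 to 0.163 at 48 h.

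Of the remaining membrane proteins, CD63, a tetraspanin of late endosomes, rose by 0.35 ± 0.03, 0.79 ± 0.04 and 0.69 ± 0.06 at 6, 24 and 48 h. SCARB2, an integral membrane protein of lysosomes also known as LIMP2, rose by 0.31 ± 0.09, 0.48 ± 0.08 and 0.89 ± 0.09, although its 6 h call was lost on TPM (0.14, adjusted p = 0.18). NPC1, which exports cholesterol from the lysosome, rose by 0.28 ± 0.05 and 0.34 ± 0.06 at 6 and 24 h. At 48 h NPC1 overlapped, at 61.9, 52.7 and 59.6 CPM in control and 56.9, 58.9 and 56.2 with DMF (-0.02 ± 0.08, adjusted p = 0.82). SCARB2 and NPC1 overlap other genes (FAM47E and RMC1), with the limit given for MCOLN1.

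**Figure D3:**
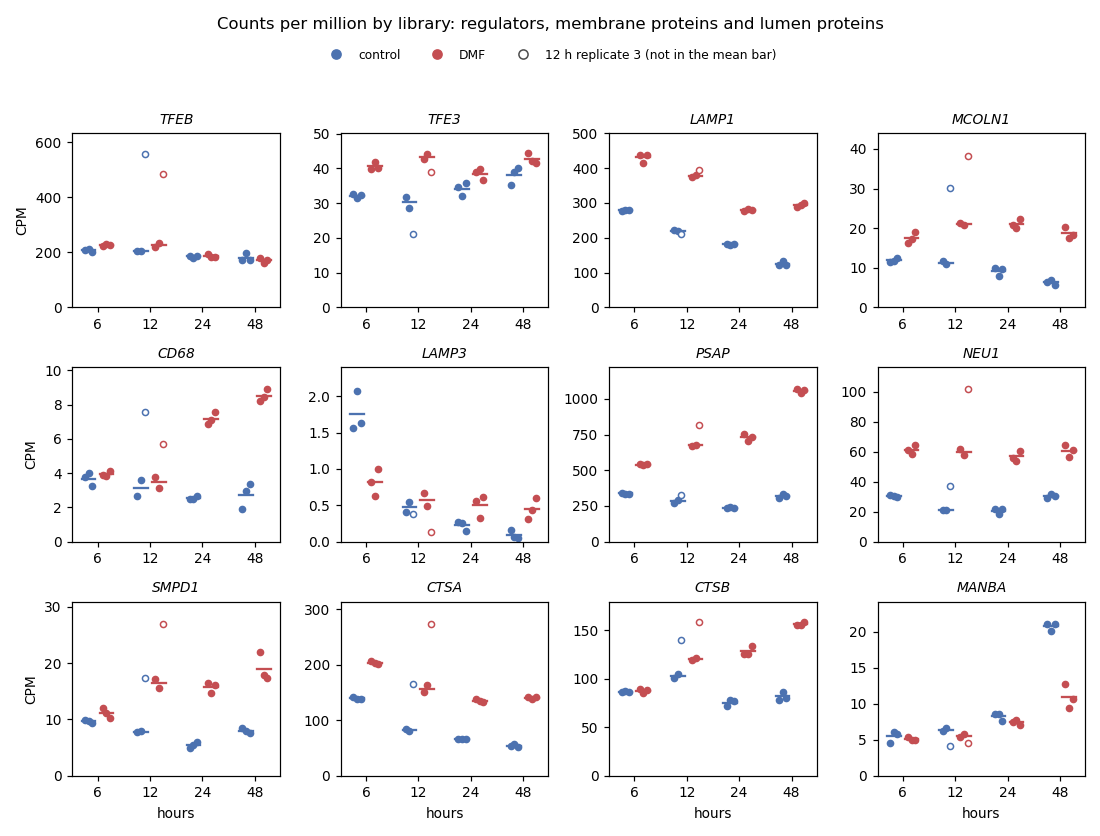
CPM (y axis, linear from 0, a separate scale for each gene) in every library by hours (x axis), control in blue and DMF in red, with bars for the mean of the filled points and open circles for replicate 3 of 12 h. PSAP and MCOLN1 libraries with DMF lie above their controls at each of 6, 24 and 48 h, CD68 and CTSB separate at 24 and 48 h, and MANBA with DMF lies below control at 48 h.

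PSAP, the precursor of the saposins that present sphingolipids to their hydrolases, had the largest log2 fold changes among the hydrolases and lumen proteins at 24 and 48 h. Its CPM at 6 h were 340.0, 335 and 337 in control and 544, 535 and 540.4 with DMF (0.67 ± 0.03, adjusted p = 8.2e-18). At 24 h they were 236, 241 and 236 against 752, 707 and 735 (1.62 ± 0.04, adjusted p = 2.4e-17). By 48 h the values were 306, 336 and 318 against 1068, 1042 and 1063 (1.72 ± 0.06, adjusted p = 1.4e-14), a fold of 3.29. The groups were apart at each time, and the control at 48 h against control at 6 h was not called (-0.08 ± 0.05, adjusted p = 0.17).

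NEU1, the lysosomal sialidase, and CTSA, the protective protein that keeps NEU1 and GLB1 in a complex, both rose at 6, 24 and 48 h. For NEU1 the 6 h CPM were 31.0, 30.6 and 29.9 in control and 61.2, 58.5 and 64.6 with DMF (1.0 ± 0.05, adjusted p = 2.4e-16). At 48 h they were 29.3, 31.9 and 30.5 against 64.1, 56.5 and 61.2 (0.96 ± 0.07, adjusted p = 9.1e-10), with 1.47 ± 0.06 at 24 h. For CTSA the 48 h CPM were 53.7, 57.8 and 51.5 in control and 141, 139 and 142 with DMF (1.37 ± 0.06, adjusted p = 1.1e-12), after 0.54 ± 0.03 at 6 h and 1.02 ± 0.04 at 24 h. CTSA overlaps NEURL2 and PLTP, and GLB1 overlaps TMPPE, with the limit given for MCOLN1. DMF and control did not overlap for NEU1 or CTSA at these times. The third protein of that complex, GLB1, stood at 27.6, 27.8 and 28.3 CPM in control and 28.4, 27.5 and 29.8 with DMF at 6 h, and its log2 differences were 0.03 ± 0.05, 0.00 ± 0.05 and -0.05 ± 0.07 at 6, 24 and 48 h.

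SMPD1, the acid sphingomyelinase, differed little at 6 h and clearly later. At 6 h its CPM were 9.91, 9.76 and 9.41 in control and 12.1, 11.1 and 10.2 with DMF, without overlap (0.19 ± 0.08, adjusted p = 0.04). That call was lost without any 1 of the 3 controls (adjusted p = 0.059, 0.062 and 0.13), without DMF replicate 1 (0.18) or 2 (0.071), with DESeq2 (0.13) and on TPM (0.60). At 24 h the CPM were 5.01, 5.50 and 5.97 against 16.4, 14.8 and 16.1 (1.52 ± 0.09, adjusted p = 2.1e-11). By 48 h the values were 8.46, 7.95 and 7.50 against 21.9, 17.95 and 17.3 (1.19 ± 0.10, adjusted p = 6.4e-09). No DMF library overlapped a control at either later time.

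ASAH1, the acid ceramidase, had the highest 6 h log2 fold change of all members at 1.08 ± 0.04. It had 52.8, 51.3 and 52.2 CPM in control and 111, 109.5 and 112 with DMF. GLA, the alpha-galactosidase missing in Fabry disease, rose by 0.88 ± 0.03, 0.82 ± 0.04 and 0.86 ± 0.07 at 6, 24 and 48 h, though its gene overlaps a read-through gene of the table. HEXA, a subunit of beta-hexosaminidase, rose by 0.42 ± 0.03 and 0.43 ± 0.04 at 6 and 24 h. Its 48 h call (0.15 ± 0.06, adjusted p = 0.038) was lost without control replicates 1 (0.12) or 3 (0.11), without DMF replicates 1 (0.077), 2 (0.12) or 3 (0.11), and with DESeq2 (0.072). NPC2, the soluble cholesterol carrier that works with NPC1, rose by 0.50 ± 0.06, 1.22 ± 0.07 and 0.55 ± 0.08. NPC2 overlaps ISCA2.

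The cathepsins, the proteases of the lumen, did not move as a block. CTSC, which activates granule proteases, and CTSD, the aspartic cathepsin, rose at 6, 24 and 48 h, by 0.58, 0.36 and 0.74 for CTSC and 0.46, 1.19 and 1.23 for CTSD. CTSB was not called at 6 h, at 86.3, 86.9 and 85.9 CPM in control and 89.6, 85.5 and 88.2 with DMF, and was higher at 24 h (0.77 ± 0.04) and 48 h (0.93 ± 0.06). At 48 h its CPM were 78.5, 86.2 and 80.4 against 156, 156 and 158, fully apart. CTSZ and CTSH fell at 6 h, by 0.16 ± 0.03 and 0.31 ± 0.04, and rose at 24 h, by 0.44 ± 0.04 and 0.28 ± 0.05. At 48 h CTSZ was higher by 0.63 ± 0.06, and CTSH was not called (0.03 ± 0.07, adjusted p = 0.76).

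CTSS, the cathepsin that trims the invariant chain for MHC class II presentation in B cells, was lower at 48 h. Its CPM were 148, 158 and 155 in control and 106, 110.4 and 113 with DMF (-0.48 ± 0.06, adjusted p = 1.2e-06). At 6 and 24 h it was higher by 0.19 ± 0.03 and 0.15 ± 0.04, calls that TPM did not make (0.05 and 0.10, adjusted p = 0.19 and 0.073). MANBA, the beta-mannosidase, was the other member lower at 48 h, at 21.1, 20.2 and 21.1 CPM in control and 12.8, 9.37 and 10.7 with DMF (-1.02 ± 0.10, adjusted p = 3.3e-08). Both genes were fully apart at 48 h, and the MANBA control had itself risen from 4.58 to 6.11 CPM at 6 h.

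Of the remaining lumen proteins, GRN rose by 0.15 ± 0.03, 0.38 ± 0.04 and 0.30 ± 0.06 at 6, 24 and 48 h, with the 6 h call lost on TPM (0.01, adjusted p = 0.76). TPP1, a tripeptidyl peptidase, rose by 0.24 ± 0.04, 0.66 ± 0.07 and 0.77 ± 0.08. GAA, the acid alpha-glucosidase with 2 printed cores, was called at 24 h only of these times (0.47 ± 0.08), with -0.02 ± 0.08 at 6 h and -0.16 ± 0.09 at 48 h. LIPA, the acid lipase, was higher by 0.53 ± 0.06 at 24 h and 0.17 ± 0.07 at 48 h (adjusted p = 0.048), the second lost without control replicate 1 (0.25) or 3 (0.051), DMF replicate 1 (0.093), 2 (0.086) or 3 (0.16), and with DESeq2 (0.13). GUSB, the beta-glucuronidase, fell by 0.24 ± 0.04 at 6 h and was higher by 0.27 ± 0.07 at 48 h. Its 24 h call (0.11 ± 0.05, adjusted p = 0.04) was lost without control replicates 1 (0.098), 2 (0.18) or 3 (0.05), DMF replicates 1 (0.077) or 3 (0.13), with DESeq2 (0.09) and on TPM (0.25). LIPA overlaps 4 interferon-induced genes, and its reads carry the limit given for MCOLN1.

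The 12 V-ATPase members all rose, while further genes of the pump, given below, did not all do so. The median log2 fold change of the 12 was 0.52 at 6 h, 0.49 at 24 h and 0.70 at 48 h. Every DMF library lay above every control for all 12 subunits at each of these times. Over all genes, DMF lay wholly above control for 31.6%, 33.1% and 31.3%, and wholly below for 30.9%, 32.9% and 30.8%. The V0 sector had medians of 0.69, 0.55 and 1.06, and V1 of 0.42, 0.45 and 0.52.

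In V0, the a subunits line the proton path. For ATP6V0A1 the CPM at 6 h were 98.7, 88.1 and 93.5 in control and 157, 154 and 152 with DMF (0.72 ± 0.04, adjusted p = 1.9e-15). At 48 h they were 57.6, 56.4 and 60.6 against 167, 169.8 and 172 (1.54 ± 0.06, adjusted p = 1.5e-13), the largest V-ATPase value, with 0.95 ± 0.04 at 24 h. Control and DMF were apart and the DMF levels of the 2 times were near each other, at 152 to 157 and 167 to 172 CPM. ATP6V0A2, the isoform best known from the Golgi and endosomes, had 31.9, 30.0 and 29.7 CPM in control and 49.2, 47.4 and 48.8 with DMF at 6 h (0.66 ± 0.04, adjusted p = 1.3e-12), then 0.51 ± 0.05 and 1.0 ± 0.09 at 24 and 48 h. Another a subunit outside the members, TCIRG1 (a3), fell by 0.49 ± 0.05 at 6 h, at 37.4, 40.8 and 38.6 CPM in control and 27.7, 26.9 and 29.0 with DMF.

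ATP6V0B and ATP6V0C encode the c″ and c subunits of the rotor ring. ATP6V0B had 119, 116 and 115 CPM in control and 193, 186 and 208 with DMF at 6 h (0.74 ± 0.04, adjusted p = 3.4e-15). At 48 h it had 70.2, 72.8 and 63.8 against 188, 147 and 152 (1.20 ± 0.08, adjusted p = 4e-10). The DMF libraries differed among themselves by more than the controls did at 48 h, and the groups stayed apart. ATP6V0C rose by 0.72 ± 0.03, 0.59 ± 0.04 and 0.70 ± 0.06 at 6, 24 and 48 h. ATP6V0C has a pseudogene in the table, so its reads could be split.

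ATP6V0D1, the d subunit that joins the rotor to V1, carries the printed core TCACGTGA. It had 153, 151 and 145 CPM in control and 209, 197 and 212 with DMF at 6 h (0.46 ± 0.03, adjusted p = 3.7e-12). At 48 h it had 64.3, 73.7 and 59.9 against 158, 138 and 141 (1.12 ± 0.07, adjusted p = 1.9e-10), with 0.46 ± 0.04 at 24 h. The 48 h DMF libraries lay near the 6 h controls, and the 48 h controls lay below all of these. ATP6V0E1, the small e subunit, rose by 0.35 ± 0.03, 0.28 ± 0.04 and 0.49 ± 0.07. It overlaps the small RNA gene SNORA74B.

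In V1, ATP6V1C1, the C subunit that links the stalks and comes off when the pump disassembles, rose most. It had 59.1, 57.4 and 62.2 CPM in control and 113, 111 and 112 with DMF at 6 h (0.91 ± 0.04, adjusted p = 1.6e-17). At 48 h it had 38.6, 40.1 and 39.0 against 84.2, 90.8 and 87.6 (1.16 ± 0.07, adjusted p = 2.1e-11), with 0.66 ± 0.05 at 24 h. Both contrasts were several times the spread within a group. ATP6V1A and ATP6V1B2, which form the ATP-hydrolysing head, rose by 0.42, 0.48 and 0.70 for ATP6V1A and by 0.32, 0.41 and 0.36 for ATP6V1B2.

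ATP6V1A had 136, 127 and 135 CPM in control and 218, 215 and 217 with DMF at 48 h, far apart (0.70 ± 0.06, adjusted p = 6.1e-09). ATP6V1D, of the central stalk, rose by 0.42 ± 0.04, 0.63 ± 0.05 and 0.57 ± 0.07, and ATP6V1E1, of the peripheral stalk, by 0.23 ± 0.03, 0.37 ± 0.04 and 0.47 ± 0.06. For ATP6V1D the 24 h CPM were 37.5, 39.3 and 36.5 in control and 59.4, 57.7 and 58.7 with DMF. It overlaps EIF2S1 and MPP5.

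ATP6V1H, the regulatory H subunit, went the other way in time. It had 28.9, 29.7 and 27.6 CPM in control and 43.2, 41.2 and 44.6 with DMF at 6 h (0.58 ± 0.05, adjusted p = 7.1e-11). At 24 h it had 35.0, 35.6 and 33.7 against 44.2, 40.9 and 42.8 (0.29 ± 0.05, adjusted p = 3.7e-05). At 48 h it had 36.4, 38.6 and 34.5 against 40.7, 42.2 and 40.0 (0.17 ± 0.07, adjusted p just under the threshold). The groups did not overlap, but the 48 h call was lost without control replicates 1 (0.13) or 3 (0.22), DMF replicates 1 (0.064), 2 (0.24) or 3 (0.11), and with DESeq2 (0.15). Without that call, 11 subunits were higher at 48 h.

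**Figure D4:**
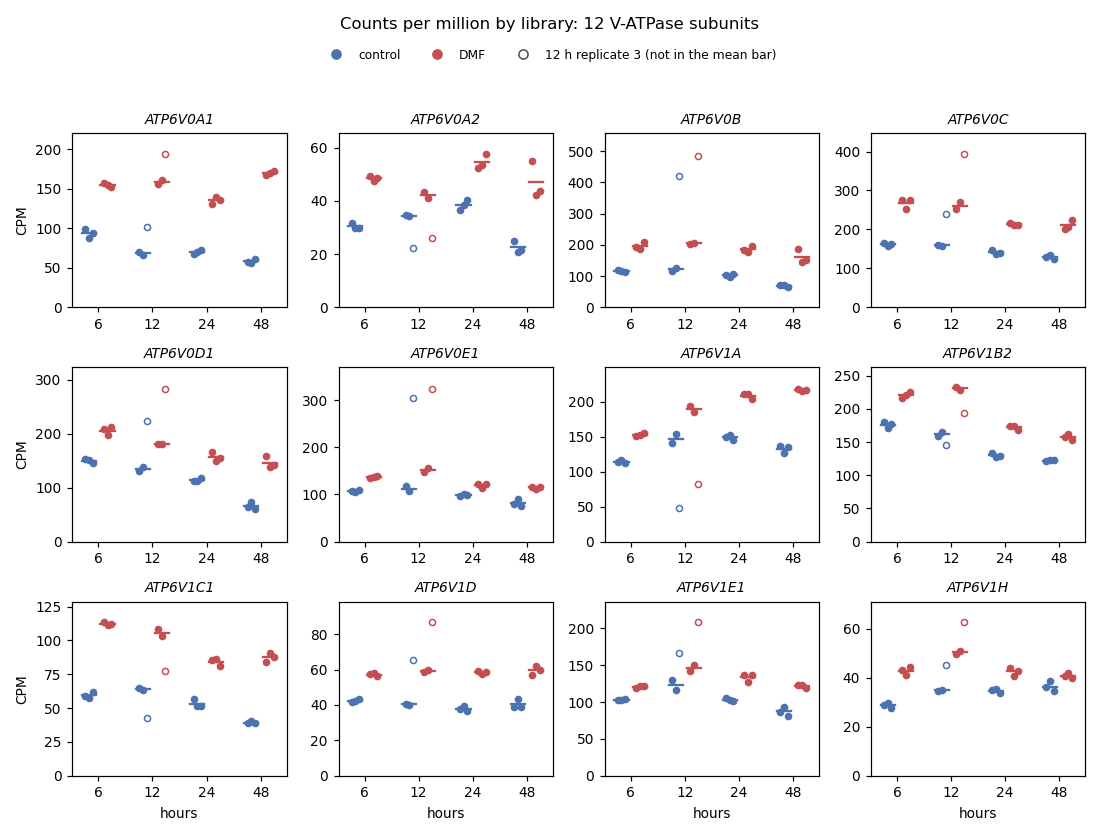
CPM (y axis, linear from 0, a separate scale for each subunit) of the 12 V-ATPase subunits in every library by hours (x axis), control in blue, DMF in red, bars for the mean of the filled points and open circles for replicate 3 of 12 h. For each subunit the filled red points lie above the filled blue points at 6, 24 and 48 h, and the gap of ATP6V1H is smallest at 48 h.

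At 12 h the replicate 3 libraries set the outcome of the test. With all 6 libraries, edgeR called 0 of 43 members and 0.0% of all genes in either direction. At an unadjusted edgeR p under 0.05, 10 members were higher and 0 lower, beside 358 and 694 of all 12408 genes. DESeq2 called 6 members higher (0.817% of all genes) and 0 lower (1.23%). The same-numbered control and DMF libraries deviated together at 12 h, and with the replicate number as a block 26 members were called higher and 1 lower, against 10.3% and 14.3% of all genes. In the fit of the 22 other libraries, which leaves 2 against 2 at 12 h, 34 were called higher and 2 lower, against 24.0% and 23.8%. A fit of the 4 libraries of 12 h alone, added after the data were seen, also gave 34 and 2, against 25.8% and 27.3%. Every DMF library lay above every control for 13 members (8.14% of all genes) and below for 0 (8.63%). In the 22 libraries all 12 V-ATPase subunits were called higher (median 0.52). So were 14 of 21 hydrolases and lumen proteins and 6 of 8 membrane proteins, while CTSH and GUSB were lower.

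PSAP shows what the libraries do at 12 h. Its CPM were 274, 292 and 325 in control and 672, 677 and 820 with DMF, in replicate order, with replicate 3 the highest of each group and no overlap. The log2 fold change was 1.27 ± 0.22 with all 6 libraries (adjusted p = 0.18), 1.27 ± 0.10 with the block (adjusted p = 0.00094) and 1.26 ± 0.05 in the 22 libraries (adjusted p = 1.2e-19). For ATP6V0B the replicate 3 libraries stood at 419 in control and 486 with DMF, beside 117 and 127 in the other controls and 204 and 206 in the other DMF libraries. Its estimate then ran from 0.42 ± 0.66 (adjusted p = 1.0) to 0.56 ± 0.14 with the block (adjusted p = 0.028) and 0.76 ± 0.07 in the 22 libraries (adjusted p = 2.2e-09). TFEB at 12 h changed sign, from -0.06 ± 0.56 with all 6 libraries (adjusted p = 1.0) to 0.02 ± 0.11 with the block (adjusted p = 0.92) and 0.15 ± 0.05 in the 22 libraries (adjusted p = 0.029). NEU1 at 12 h was 1.48 ± 0.37 (adjusted p = 0.33), 1.48 ± 0.09 (0.00065) and 1.52 ± 0.07 (9.1e-17) in that order.

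Whether the effect of DMF differed between times was tested directly, in fits that share the 6 h libraries and each take up libraries of the comparisons above. For 24 h minus 6 h, 22 members were called higher and 4 lower, against 26.0% and 24.3% of all genes. On TPM the split over all genes was 3798 higher and 1998 lower, beside 3389 and 3169 by counts. The lower count was 7 without control replicate 2 or without DMF replicate 1 of 24 h. For 48 h minus 6 h, 25 were higher and 7 lower, against 26.6% and 23.8%, with 6380 and 961 genes on TPM beside 3524 and 3154 by counts.

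Of 21 hydrolases and lumen proteins, 14 had a larger effect at 24 h than at 6 h and 2 a smaller one, with SMPD1 (1.33 ± 0.12, adjusted p = 2.5e-10) and PSAP (0.96 ± 0.04, adjusted p = 1.1e-16) the furthest. Of 12 V-ATPase subunits, 3 had a larger and 2 a smaller effect at 24 h, and the median difference was 0.04. Those V-ATPase counts are near the shares of all genes, 26.0% and 24.3%. At 48 h 7 subunits had a larger effect than at 6 h, led by ATP6V0A1 (0.84 ± 0.07, adjusted p = 8.2e-10), and ATP6V1H a smaller one (-0.40 ± 0.08, adjusted p = 0.00027; -0.01 on TPM, adjusted p = 0.94). CD68 was higher by 1.52 ± 0.21 and LAMP1 by 0.62 ± 0.06 at 48 h against 6 h. CTSS (-0.66 ± 0.06) and MANBA (-0.91 ± 0.15) were lower. TFEB, ASAH1, HEXA and NPC1 were lower by counts (-0.21, -0.21, -0.26 and -0.29) and above 0 on TPM (0.18, 0.22, 0.10 and 0.08). Those TPM values lie below the TPM median of all genes given earlier for this difference. On TPM, HEXA and NPC1 were not called (limma, adjusted p = 0.13 and 0.55). The TFEB call was lost without control replicate 3 of 6 h (adjusted p = 0.062) or DMF replicate 2 of 48 h (0.099), and that of ASAH1 without the latter (0.084).

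Control cultures moved too. From 6 to 48 h without DMF, 13 members rose and 24 fell, against 37.8% and 37.0% of all genes, with a member median of -0.20 beside 0.01. All 6 V0 subunits fell, ATP6V0D1 by 1.18 ± 0.07 and ATP6V0B by 0.76 ± 0.06, while V1 had 3 lower and 2 higher (ATP6V1A and ATP6V1H). CTSA fell by 1.37 ± 0.05, LAMP1 by 1.16 ± 0.05 and LAMP3 by 4.26 ± 0.37. MANBA rose by 1.93 ± 0.10, GAA by 1.02 ± 0.09 and LIPA by 0.99 ± 0.07. Some weaker calls rest on single libraries: CTSS (0.12, adjusted p = 0.041) was lost without any 1 control of 6 h or replicate 3 of 48 h (adjusted p = 0.066 to 0.16), TPP1 (-0.16, adjusted p = 0.049) without any 1 of 5 libraries (0.053 to 0.14) and LAMP2 (-0.15, adjusted p = 0.019) without control replicate 3 of 6 h (0.078).

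The control libraries of 48 h stand in this comparison and in DMF against control at 48 h, with opposite sign, so the values are only set side by side. For LAMP1 they are -1.16 in control over time and 1.23 for DMF at 48 h. For ATP6V0D1 they are -1.18 and 1.12, for MANBA 1.93 and -1.02. PSAP and NEU1, in contrast, stood at -0.08 and 0.00 in control over time beside 1.72 and 0.96 for DMF at 48 h.

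**Figure D5:**
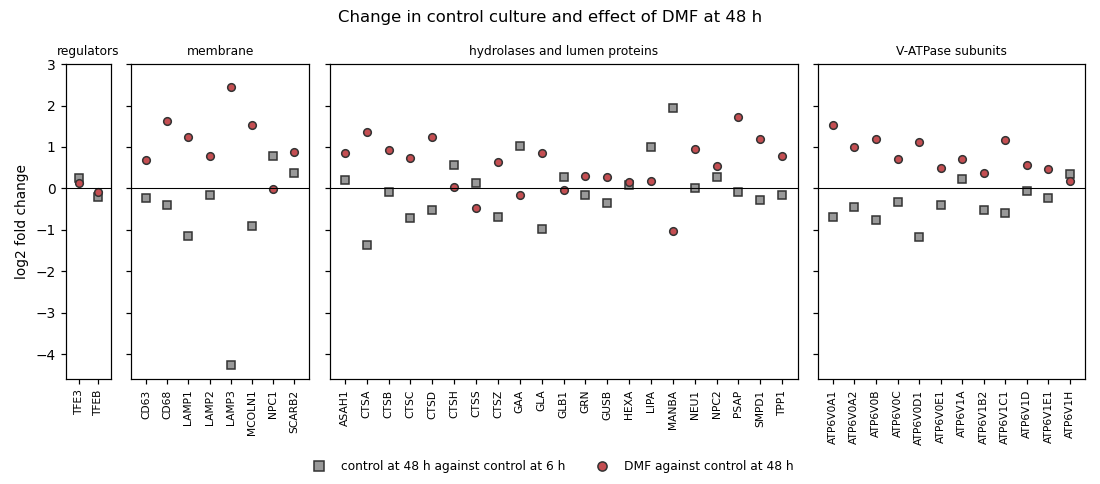
Log2 fold change (y axis, log2 scale) of each member (x axis) for control at 48 h against control at 6 h (grey squares) and for DMF against control at 48 h (red circles), which share the control libraries of 48 h. The 6 V0 subunits have squares below 0 and circles above 0, PSAP and NEU1 have squares near 0, and LAMP3 has the lowest square at -4.26.

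A fit that pools the spread of all 24 libraries, replicate 3 of 12 h included, called a smaller share of all genes than the separate fits in each comparison other than 12 h. At 6 h it called 13 members higher and 1 lower, against 4.9% and 5.51% of all genes. At 12 h, where the separate edgeR fit called none, it called 17 and 0, against 7.14% and 9.76%. The 24 h counts were 20 and 0, against 7.7% and 6.48%, and the 48 h counts 26 and 2, against 13.1% and 12.4%. It called 4 and 0 for 24 h minus 6 h (3.39% and 2.6%), 6 and 2 for 48 h minus 6 h (6.31% and 5.72%), and 6 and 12 in control over time (21.5% and 20.3%).

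Pooling the other 22 libraries did not lower the members' counts in this way. That fit called 33 and 4 at 6 h (23.8% and 23.4% of all genes), 40 and 0 at 24 h (29.4% and 27.9%) and 36 and 2 at 48 h (33.5% and 30.8%). It called 21 and 4 for 24 h minus 6 h (22.4% and 21.7%), 25 and 7 for 48 h minus 6 h (26.6% and 24.2%), and 14 and 25 in control over time (38.1% and 36.8%).

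Other genes of the pathway, from lists written with earlier results of these data known, are given by their counts. Among 37 further hydrolases and lumen proteins, 34 were tested at 6 h, where 13 rose and 7 fell, beside 28.8% and 29.0% of all genes. Of 33 tested at 24 h, 23 rose and 3 fell (31.2% and 30.2% of all genes), and of 34 at 48 h, 17 rose and 3 fell (29.9% and 29.7%). GM2A, the activator of beta-hexosaminidase, rose by 0.68, 1.21 and 1.13, and SCPEP1, a serine carboxypeptidase, by 0.66, 1.17 and 1.3. IDUA, the alpha-iduronidase, fell by 1.20 ± 0.37 at 6 h and rose by 0.98 ± 0.28 at 24 h, at levels under 1 CPM in all libraries of both times.

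Among 27 further membrane and sorting proteins, 12 of 25 tested rose and 5 fell at 6 h, 21 of 26 rose and 2 fell at 24 h, and 17 of 27 rose and 2 fell at 48 h. IGF2R, the large mannose 6-phosphate receptor that delivers hydrolases, rose by 0.70, 0.60 and 1.02. CTNS, the cystine exporter, rose by 0.66, 0.76 and 1.08, and TMEM175, a lysosomal ion channel, stood at -0.03 (adjusted p = 0.85) at 6 h and rose by 0.77 and 1.13 later. Of 13 further V-ATPase genes, 8 were tested at 6 h (4 rose, 2 fell), and 9 at 24 h (6 rose, 1 fell) and 48 h (5 rose, 1 fell). Over all genes, 28.8% were called higher and 29.0% lower at 6 h. At 24 h these shares were 31.2% and 30.2%, and at 48 h 29.9% and 29.7%. The further V-ATPase genes that fell at 6 h are 25.0% of those tested, near the share of all genes. Called higher at all 3 times were 3 of the 8 tested at each (37.5%), against 9.91% of all genes. ATP6V1G1, a peripheral stalk subunit, rose by 0.60, 0.51 and 0.39, and the accessory protein ATP6AP1 by 0.22, 0.65 and 0.67.

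Of 20 MiT/TFE relatives and regulators tested, 13 rose and 2 fell at 6 h (28.8% and 29.0% of all genes), 10 rose and 5 fell at 24 h (31.2% and 30.2%), and 12 rose and 1 fell at 48 h (29.9% and 29.7%). RRAGD, a Rag GTPase that recruits mTORC1 and these factors to the lysosome, had 9.03, 7.43 and 9.56 CPM in control and 22.8, 22.6 and 23.8 with DMF at 6 h (1.39 ± 0.07, adjusted p = 6.6e-15). FLCN and FNIP2, partners in the complex that acts on RRAGC and RRAGD, rose by 0.79 ± 0.04 and 0.92 ± 0.09. All 3 were fully apart at 6 h. At 24 h their values were 1.37 ± 0.10 for RRAGD, 0.80 ± 0.05 for FLCN and 0.18 ± 0.12 for FNIP2, which was not called. At 48 h their values were 0.33 ± 0.11 for RRAGD, 0.36 ± 0.07 for FLCN and 0.62 ± 0.18 for FNIP2. For RRAGD the effect at 48 h was smaller than that at 6 h by the test of the difference (-1.05), while for FNIP2 that test gave -0.29 and no call. Between 24 and 6 h the effect was larger for 3 of the 20 and smaller for 8, FNIP2 among them (-0.74), against 26.0% and 24.3% of all genes.

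Known TFEB targets of autophagy and traffic gave 12 higher and 1 lower of 15 tested at 6 h, 9 higher and 0 lower of 15 at 24 h, and 12 higher and 2 lower of 16 at 48 h. Of all genes, 28.8% and 29.0%, 31.2% and 30.2%, and 29.9% and 29.7% were called higher and lower at these times. The list shares RRAGD, FLCN, FNIP1 and FNIP2 with the list of regulators above, so the counts of these lists are not independent. GABARAPL1, an ATG8 protein of the autophagosome, had 9.09, 8.95 and 7.93 CPM in control and 39.5, 40.0 and 40.4 with DMF at 6 h (2.21 ± 0.06, adjusted p = 4.4e-21), then 1.91 ± 0.10 and 1.87 ± 0.12 at 24 and 48 h. SQSTM1, the autophagy receptor p62 and also a known NRF2 target, had 761, 762 and 747 against 1819, 1816 and 1862 CPM at 6 h (1.27 ± 0.03, adjusted p = 4.1e-24) and was higher by 1.77 at 24 and 48 h. For both genes every DMF library lay above every control at 6, 24 and 48 h.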

How the data were processed

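Libraries were made by standard Illumina protocols, per the labels. The submitters' processing notes name HISAT2, HISAT, RSEM and the build GRCh38.p12; versions and strand are not given in the sources used here. The deposited expected counts are RSEM's estimates for each gene, not normalized, and 6.16% to 11.53% of them per library were not whole. The deposited TPM values are scaled by the authors for effective length and to a sum of 1000000 per library. Expected counts were rounded, filtered with filterByExpr and scaled by TMM, and each of 7 comparisons was fitted on its own libraries with edgeR 4.0.16 (R 4.3.3); standard errors are the log2 fold change over the root of F. The members and lists were chosen with earlier results of these data known. Per-library values are given for TFEB, TFE3 and up to 4 members of each other class with the largest change among those called at 2 or more times, and for further members picked after their values were seen. From each other list up to 3 called genes per time with the largest change could be named, of which some are given with their values at the other times. Alternatives were DESeq2's size factors, no filter, DESeq2 1.42.0, a replicate block, all 24 or 22 libraries in 1 fit, limma 3.58.1 on log2(TPM + 1) or log2(TPM + 0.1) (filtered at a mean TPM of 1 or not), and each library left out. Deviations of same-numbered libraries correlated at 0.76, 0.75 and 0.90 at 12 h, so the numbers were taken as pairs there, from the data alone; replicates 1 and 2 correlated as highly across numbers (0.72 and 0.77). At the other times same-numbered correlations ran from -0.06 to 0.04. Depth limits precision most in DMF replicate 1 at 48 h. Genes overlapping another gene of the table were counted as deposited, and a GC or length correction was not made. The search for motifs used RefSeq promoters of GRCh38.p14 by gene symbol. Steps were tested on simulated data. The fits called 17, 15 and 18 genes without a planted change at 6, 24 and 48 h, and 0 at 12 h. Of planted 4-fold changes, they recovered 100% at 6 and 24 h, 98% at 48 h and 0% at 12 h with all 6 libraries. Of planted 1.3-fold changes they recovered 70%, 74%, 56% and 0% in that order. The absence of calls in that 12 h fit therefore does not show an absence of change.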

Additional observations from a re-analysis of the deposited data

Results flagged for a closer look

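The effect of DMF on 26 members differed between 24 and 6 h, and on 32 between 48 and 6 h, by the edgeR test of the difference itself (log2 scale, adjusted p under 0.05). Both tests use the 6 h libraries. At 24 h against 6 h, 22 members were called higher and 4 lower, where 26.0% and 24.3% of all genes were. At 48 h against 6 h, 25 were called higher and 7 lower, where 26.6% and 23.8% of all genes were.

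At 24 h against 6 h the membrane proteins LAMP2 (0.24), CD63 (0.44), MCOLN1 (0.65), CD68 (1.37) and LAMP3 (2.23) had larger effects. So did the hydrolases and lumen proteins GRN (0.24), GUSB (0.36), TPP1 (0.43), LIPA (0.46), NEU1 (0.48), CTSA (0.49), GAA (0.50), CTSZ (0.60), CTSH (0.60), CTSD (0.73), NPC2 (0.73), CTSB (0.76), PSAP (0.96) and SMPD1 (1.33), while ASAH1 (-0.32) and CTSC (-0.20) had smaller ones. In the V-ATPase, ATP6V0A1 (0.24), ATP6V1D (0.22) and ATP6V1E1 (0.15) had larger and ATP6V1C1 (-0.24) and ATP6V1H (-0.28) smaller effects. ATP6V1E1 was no longer called without DMF replicate 3 of 24 h (adjusted p = 0.053).

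At 48 h against 6 h the effect was larger for the membrane proteins LAMP2 (0.26), CD63 (0.35), SCARB2 (0.59), LAMP1 (0.62), MCOLN1 (0.97), CD68 (1.52) and LAMP3 (3.56) and smaller for NPC1 (-0.29). It was larger for GRN (0.16), CTSC (0.17), CTSH (0.34), GUSB (0.52), TPP1 (0.55), CTSD (0.79), CTSZ (0.80), CTSA (0.84), CTSB (0.93), SMPD1 (1.0) and PSAP (1.06), and smaller for ASAH1 (-0.21), HEXA (-0.26), CTSS (-0.66) and MANBA (-0.91). In the V-ATPase it was larger for ATP6V1E1 (0.25), ATP6V1C1 (0.27), ATP6V1A (0.29), ATP6V0A2 (0.33), ATP6V0B (0.46), ATP6V0D1 (0.67) and ATP6V0A1 (0.84), and smaller for ATP6V1H (-0.40). For TFEB it was smaller (-0.21). The calls of GRN and CTSC rest on single libraries. GRN was lost without any 1 of 9 of the 12 libraries (adjusted p = 0.055 to 0.15); it was kept without control replicate 2 or DMF replicate 1 or 2 of 48 h. CTSC was lost without control replicate 1 (0.1), DMF replicate 1 (0.06) or 2 (0.085) of 6 h, control replicate 3 (0.063) or DMF replicate 2 (0.051) of 48 h.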

How the results depend on the processing

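Counts of members called higher and lower moved most with whether replicate 3 of 12 h entered the fit. Pooling the other 22 libraries called 33 higher, 4 lower at 6 h, 40 higher, 0 lower at 24 h, and 36 higher, 2 lower at 48 h. With all 24 libraries in 1 fit, 13 and 1 were called at 6 h, 17 and 0 at 12 h, 20 higher at 24 h, 4 and 0 for 24 h minus 6 h, 6 and 2 for 48 h minus 6 h, and 6 and 12 in control over time. At 12 h DESeq2 called 6 higher, the replicate block 26 and 1, the 22 libraries 34 and 2, and the 4 libraries 34 and 2. On TPM without a filter 7 were lower at 6 h. For 24 h minus 6 h, DESeq2's size factors gave 8 lower, and log2(TPM + 0.1) and unfiltered TPM 2 each. For 48 h minus 6 h, log2(TPM + 1) gave 2 lower, and the other TPM settings 1 each; control over time had 8 higher in all 3 TPM settings. The cause was not tested.

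Leaving out 1 library gave 32 to 33 higher and 4 to 4 lower at 6 h, 0 to 0 at 12 h, 38 to 40 and 0 to 0 at 24 h, 32 to 35 and 2 to 3 at 48 h, 21 to 23 and 4 to 7 for 24 h minus 6 h, 23 to 27 and 5 to 8 for 48 h minus 6 h, and 12 to 13 and 22 to 26 in control over time. TFEB changed sign on all 3 TPM settings at 6 h (-0.02) and 48 h (0.16), and at 12 h in the 22 (0.15) and 4 libraries (0.13) and with the replicate block (0.02). For 48 h minus 6 h, ASAH1 (0.22), HEXA (0.10), NPC1 (0.08) and TFEB (0.18) changed sign on TPM. They still lay below the median of all genes on log2(TPM + 1) given earlier. Away from 12 h, where replicate numbers do not pair the libraries, the replicate block ended the calls of ATP6V1H (adjusted p = 0.077), HEXA (0.06) and LIPA (0.084) at 48 h and of CTSS in control over time (0.054), and no other member's call. Genes of few reads, above all LAMP3, are limited by depth.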
